A study of Mus musculus with 3 samples.

Results

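Toll-like receptors are the membrane proteins with which macrophages recognise conserved molecules of microbes. The 10 genes described here are the receptor genes Tlr1, Tlr2, Tlr3, Tlr5, Tlr6, Tlr7, Tlr8, Tlr9 and Tlr13, together with Unc93b1, which encodes their transport chaperone, out of 55536 annotated genes. They were taken by name and gene identifier. The other mouse receptors, Tlr4, Tlr11 and Tlr12, are given for comparison. Levels were measured by ribo-depleted total RNA sequencing of the cytosolic fraction of primary macrophages grown from C57BL/6J bone marrow. The series has 1 group of 3 libraries, replicates 1, 2 and 3. All cells had received the same course: 100 ng/ml of Lipid A, the portion of lipopolysaccharide that TLR4 senses, for 12 h, a washout of 12 h and a second dose of 100 ng/ml for 20 min. The replicates are called biological in the labels but carry a single donor identifier, so each SD below is a spread between these libraries, part of which may be technical. Because no other treatment or fraction was analysed here, the values are levels in the cytosol after the second dose and not responses to it.

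The receptors fall into classes by the membrane in which they meet their ligands. TLR2 pairs with TLR1 or TLR6 at the cell surface to recognise bacterial lipopeptides, and TLR5 recognises flagellin there. TLR3 (double-stranded RNA), TLR7 and TLR8 (single-stranded RNA), TLR9 (unmethylated CpG DNA) and TLR13 (bacterial ribosomal RNA) recognise nucleic acids inside endosomes. UNC93B1 carries the endosomal receptors out of the endoplasmic reticulum, and TLR5 also depends on it for reaching the surface.

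Expected counts (estimates of the reads from each gene, not always whole) summed to 32055937, 43616634 and 47864978 over annotated genes in replicates 1, 2 and 3. The 10 genes held 90365, 103108 and 119784 of them. Levels are in TPM, a transcript abundance per length that is scaled to a fixed sum in each library. Protein-coding genes held 32.7%, 27.4% and 27.8% of that sum. All 7 macrophage markers were at 1 TPM or more in every library, from Mertk at 40.5 ± 6.67 TPM to Lyz2 at 3120 ± 176 TPM (SD, n = 3). Of 31 markers of 8 other cell types, 5 were at 1 TPM or more in every library, namely Cox6a2, Cd79b, S100a8, S100a9 and Kdr.

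Of the 10 genes, 9 were at 1 TPM or more in every library, and Tlr5 was the exception. Over all annotated genes that share was 17.2%, and over the 22028 protein-coding genes it was 41.3%. In bulk RNA, fewer expressing cells and less RNA per cell cannot be told apart. Unc93b1 had the highest level of the 10, and Tlr7 and Tlr1 the highest of the receptors by mean TPM. Among surface receptors the mean TPM ran from Tlr5 at 0.06 to Tlr1 at 61.7, and among endosomal receptors from Tlr3 at 22.1 to Tlr7 at 73.3.

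**Figure D1:**
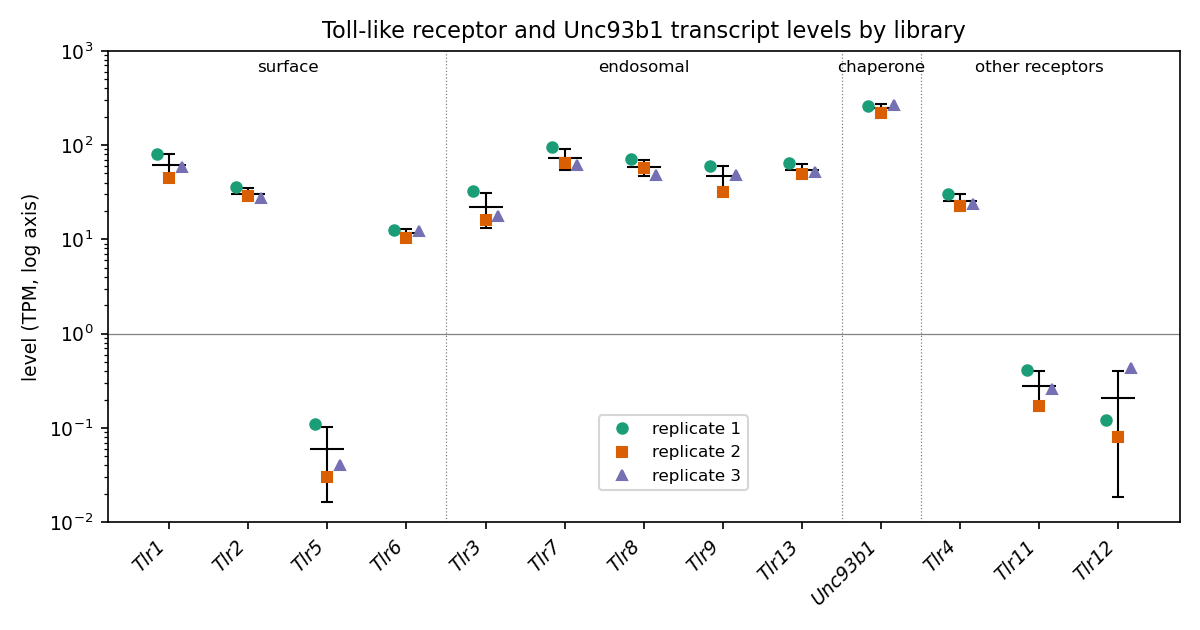
Transcript level (TPM, log axis) of each gene in replicates 1, 2 and 3 (points), with the mean (wide bar) and SD (error bar) over 3 libraries. The 5 endosomal receptors lie between 16.21 and 94.53 TPM, Tlr5 lies below 1 TPM in every library, and Unc93b1 lies above all receptors.

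The surface receptors were described first by their lipopeptide-sensing members. Tlr2, the partner shared by both lipopeptide receptors (ENSMUSG00000027995.10, chr3:83836272-83841767, minus strand, mm10), stood at 35.61, 28.72 and 27.51 TPM in replicates 1, 2 and 3. Its 4959, 6430 and 6387 expected counts came from a single annotated transcript. Replicate 1 was the highest, and replicates 2 and 3 lay close together. Tlr1, the partner for triacylated lipopeptides (ENSMUSG00000044827.10, chr5:64924679-64933563, minus strand), had 81.22, 45.2 and 58.78 TPM, a mean of 61.7 ± 18.2 TPM (SD, n = 3). Every library had more Tlr1 than Tlr2, and the ranges of these genes did not overlap. Tlr6, the partner for diacylated lipopeptides (ENSMUSG00000051498.6, chr5:64952031-64960097, minus strand), had 12.55, 10.24 and 12.29 TPM. Replicate 2 was the lowest, and each library was below every library of Tlr1 and of Tlr2. In TPM, Tlr6 was 0.197 ± 0.0376 of Tlr1 and Tlr2 was 0.514 ± 0.106 of Tlr1 (ratio within a library, SD, n = 3). Of the Tlr6 level, 4.71, 5.22 and 5.71 TPM came from the 446-base transcript Tlr6-202. That part rested on only 50.5, 93.31 and 106.06 expected counts.

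Tlr5, the flagellin receptor (ENSMUSG00000079164.8, chr1:182954788-182976044, plus strand), had 0.11, 0.03 and 0.04 TPM. These levels rested on 10, 7 and 9 expected counts, with exact Poisson 95% intervals of 4.80 to 18.4, 2.81 to 14.4 and 4.12 to 17.1 counts, which cover counting error only. These intervals overlapped, and no difference between the libraries was detected at this depth. Among protein-coding genes ordered by mean TPM, Tlr5 was at rank 11677, while Tlr1 was at rank 748, Tlr2 at 1508 and Tlr6 at 3625.

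Tlr1 and Tlr6 are neighbours on the same strand of chromosome 5, with 18467 bases between them, and share coding sequence. Over their aligned coding bases 76.8% were identical, against 57.1% to 63.9% in the other pairs of the 9 receptors. Those other pairs lay close together and are not ranked here. A run of 229 identical bases covered coding bases 1468 to 1696 of Tlr1 and 1507 to 1735 of Tlr6. A stretch of 240 bases from these coding sequences is shown, from GENCODE M21 transcripts Tlr1-201 and Tlr6-201. It covers coding bases 1438 to 1677 of Tlr1 and 1477 to 1716 of Tlr6. A read that lies within its part of the identical run can belong to either gene. The capital marks the only base that differs.
Tlr1: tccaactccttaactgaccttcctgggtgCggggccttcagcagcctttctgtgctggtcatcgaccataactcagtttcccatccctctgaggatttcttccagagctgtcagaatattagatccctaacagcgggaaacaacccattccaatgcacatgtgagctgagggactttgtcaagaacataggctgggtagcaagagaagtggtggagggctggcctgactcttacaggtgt
Tlr6: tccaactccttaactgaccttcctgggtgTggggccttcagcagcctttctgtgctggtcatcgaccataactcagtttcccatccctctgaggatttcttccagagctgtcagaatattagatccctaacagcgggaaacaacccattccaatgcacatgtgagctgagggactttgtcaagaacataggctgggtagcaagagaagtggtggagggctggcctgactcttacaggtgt

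Of all windows of 50 bases in the leading transcript of Tlr1, 16.6% also occurred in another gene, which was Tlr6. In Tlr6 the share was 12.6%, with Tlr1 as the leading match. The other 8 genes had no such window. Expected counts were whole numbers in every library for those same 8 genes and not for Tlr1 and Tlr6, whose shared reads had been divided in the quantification. The deposited credibility interval of Tlr6 spanned 24.6%, 23.8% and 20.2% of its posterior mean TPM, and that of Tlr1 5.04%, 4.76% and 4.78%. These widths do not follow the shared windows. Tlr2, with 0 shared windows, spanned 5.57%, 4.87% and 4.91%, and Tlr3, also with 0, spanned 9.65%, 12.0% and 10.8%. What set the widths was not tested. By the counts that were not whole, the split of reads between Tlr1 and Tlr6 is an estimate.

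Tlr7, a receptor for single-stranded RNA (ENSMUSG00000044583.13, chrX:167304929-167330558, minus strand), had 94.53, 64.48 and 60.88 TPM. By these levels it was the highest receptor in every library, with replicate 1 above the others. In a second quantification, described below, Tlr7 led only in replicate 1. Tlr8, its neighbour 40599 bases away (ENSMUSG00000040522.5, chrX:167242696-167264329, minus strand), had 70.41, 56.63 and 48.2 TPM. Replicate 1 was again the highest, and the ranges of Tlr7 and Tlr8 overlapped although Tlr7 led in each library. Tlr13, the sensor of bacterial ribosomal RNA (ENSMUSG00000033777.4, chrX:106143204-106160493, plus strand), had 64.22, 49.0 and 51.55 TPM. Together these 3 X-linked genes made up 73.4% ± 3.95 of the summed endosomal TPM (SD, n = 3), and Tlr7 alone made up 28.6% ± 1.5.

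Tlr9, the CpG DNA receptor (ENSMUSG00000045322.10, chr9:106222598-106226883, plus strand), had 59.81, 31.87 and 48.13 TPM. Replicate 2 was the lowest and stood apart from the others. Tlr3, the receptor for double-stranded RNA (ENSMUSG00000031639.12, chr8:45395665-45411080, minus strand), had 32.38, 16.21 and 17.65 TPM. It was the lowest endosomal receptor in every library and supplied 8.43% ± 1.43 of the summed endosomal TPM. Replicate 1 was well above the other libraries, which lay close together. Tlr3 was the only one of the 10 genes whose exons overlapped those of another annotated gene. The antisense gene Gm45542 covered 698 of its bases and had 0, 0 and 1 expected counts. Without a stated strand setting, reads of that overlap cannot be assigned to a strand.

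Unc93b1 (ENSMUSG00000036908.17, chr19:3935186-3949340, plus strand) had 260.91, 218.1 and 264.88 TPM, from 23827, 32761 and 40303 expected counts. Every library exceeded every library of each receptor, and the gene was at rank 127 among protein-coding genes. Within a library the TPM of Unc93b1 was 0.812, 1.00 and 1.17 of the summed TPM of the 5 endosomal receptors in replicates 1, 2 and 3. The chaperone was thus below the sum in replicate 1, level with it in replicate 2 and above it in replicate 3.

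By mean TPM the order was Unc93b1, Tlr7, Tlr1, Tlr8, Tlr13, Tlr9, Tlr2, Tlr3, Tlr6 and Tlr5. Between neighbours in this order the ranges over the libraries did not overlap for Unc93b1 and Tlr7, Tlr3 and Tlr6, and Tlr6 and Tlr5. All other neighbours overlapped. Of these, Tlr1 with Tlr8 and Tlr8 with Tlr13 held their order in 2 of 3 libraries, and the rest in 3 of 3. Tlr1, Tlr8 and Tlr13 therefore cannot be ranked from neighbour to neighbour, and the order of the other overlapping neighbours rests on 3 libraries only.

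The design allows surface and endosomal receptors to be compared within each library. The summed surface level was 129.49, 84.19 and 98.62 TPM in replicates 1, 2 and 3, against a summed endosomal level of 321.35, 218.19 and 226.41 TPM. Endosomal receptors thus held 71.3%, 72.2% and 69.7% of the summed TPM of the 9 receptors, a mean of 71.0% ± 1.27 (SD, n = 3). The share varied little although the sums themselves were highest in replicate 1. It also depends on the number of genes summed, 5 endosomal and 4 surface, with Tlr5 below 1 TPM, so it is not a level per gene. Median levels were 24.08, 19.48 and 19.9 TPM for the 4 surface receptors and 64.22, 49.0 and 48.2 TPM for the 5 endosomal receptors.

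The difference of the medians of log2(TPM + 1), surface minus endosomal, was -1.55, -1.45 and -1.34, with a mean of -1.45 ± 0.11 (SD, n = 3). It was negative in 3 of 3 libraries and larger than its spread between them. A sign-flip test over 3 libraries cannot give a p below 0.25, so none was made. Of the 20 pairs of 1 surface and 1 endosomal receptor, the surface receptor was lower in every library in 15 and higher in every library in 3. The order of the other 2 pairs differed between libraries. The size of the difference rested partly on which receptors were in the classes. With only those at 1 TPM or more in every library, which leaves out Tlr5, it was -0.79, still negative. With Tlr4 added to the surface class and Tlr11 and Tlr12 to the endosomal class, it was -0.81.

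Tlr4, the Lipid A receptor itself, gives a point of reference at 30.58, 22.39 and 23.64 TPM. Tlr2 was 1.20 ± 0.0685 times Tlr4 within a library (ratio of TPM, SD, n = 3), higher in 3 of 3 libraries. Tlr11 and Tlr12, the remaining mouse receptors, which recognise profilin of protozoan parasites, were below 1 TPM in every library. Tlr11 had 0.41, 0.17 and 0.26 TPM. Tlr12 had 0.12, 0.08 and 0.43 TPM from 17, 18 and 105 expected counts, so replicate 3 stood above the others.

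Endosomal Tlr7 and Tlr9 are also well known from plasmacytoid dendritic cells and B cells, so the markers of those cells were read in the same libraries. Summed over 4 markers of plasmacytoid dendritic cells the level was 1.59 to 2.58 TPM, most of it Cox6a2, and Siglech was at 0.0967 ± 0.0907 TPM. The 5 B cell markers summed to 1.13 to 2.57 TPM, most of it Cd79b. The 5 markers of conventional dendritic cells summed to 0.2 to 0.26 TPM, with Cd209a at 0. These sums were below the level of Tlr7 or Tlr9 in every library. Levels of different genes do not give the share of a cell type, and whether such cells added to these receptors was not tested.

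The libraries differed from each other in most members. Expected counts were rounded, scaled with TMM factors (which bring the bulk of genes to a common level) and tested in edgeR with dispersion 0, that is, against counting noise alone. All 9 members that passed the filter on low counts were called different between libraries at an adjusted p below 0.05, with Benjamini-Hochberg adjustment over all genes tested. The background was high, since 71.1% of 12372 genes were called, so the count says nothing particular to the receptors. Tlr5 did not pass the filter, and with no filter it was not called (edgeR, adjusted p = 0.454). Without replicate 1, 7 members were called, and Tlr3 (edgeR, adjusted p = 0.207) and Tlr13 (edgeR, adjusted p = 0.710) were not, while 52.3% of the 12556 genes tested were called. The test compares these libraries and not conditions.

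The size of the library differences says more than their calls. In TMM-scaled CPM (counts relative to library size), Tlr3 had 173, 91.4 and 94.3 in replicates 1, 2 and 3, a ratio of highest to lowest of 1.89. Replicates 2 and 3 lay close together, below replicate 1. Tlr9 had 312, 188 and 269, a ratio of 1.66, with replicate 2 low. Tlr1 had 328, 211 and 250, a ratio of 1.55. Over the 9347 protein-coding genes at a mean of 1 TPM or more, the median ratio was 1.22, and 85.8% of them were under 1.5. By the SD of their log2 values, Tlr3 was at percentile 97.3 of these genes, Tlr9 at 93.2, Tlr1 at 89.7, Tlr7 at 87.0, Tlr6 at 74.2 and Tlr8 at 68.4.

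At the other end, Unc93b1 had a ratio of 1.13 (percentile 25.5), Tlr13 of 1.16 (percentile 42.4) and Tlr2 of 1.21 (percentile 47.6). Their spread between libraries was thus below the median of these genes. All 8 receptors tested were highest in replicate 1, while Unc93b1 was highest in replicate 3. The lowest library was replicate 2 for Tlr1, Tlr6, Tlr3, Tlr9 and Tlr13 and replicate 3 for Tlr2, Tlr7 and Tlr8. Other transcripts also differed between the same libraries, some with replicate 1 highest and some not. Malat1, a nuclear long noncoding RNA, had 612, 156 and 637 TPM, Neat1, another nuclear RNA, had 24.8, 12.7 and 52.4 TPM, and Irf7, an interferon-inducible factor, had 933, 583 and 672 TPM. The endothelial marker Kdr had 9.26, 3.09 and 1.97 TPM, and its list of 3 markers summed to 3.57 to 10.7 TPM, with none at 0 in every library. Most of that sum was Kdr, and the rest of the list did not follow its order. Pecam1 had 1.12, 0.51 and 1.32 TPM, and Cdh5 had 0.36, 0.23 and 0.28 TPM. Their part in the receptor differences was not tested.

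**Figure D2:**
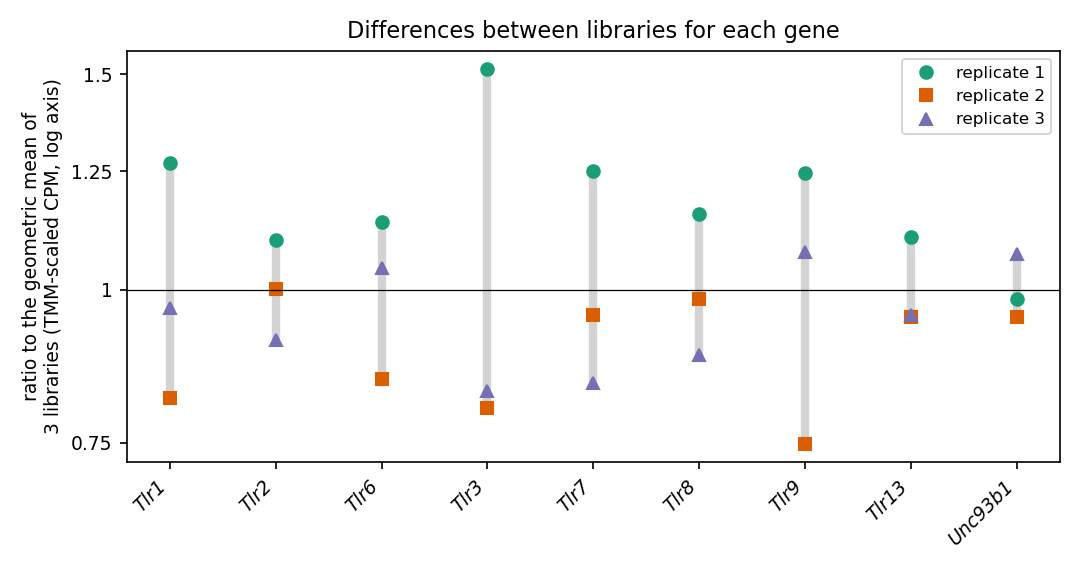
Level of each gene in replicates 1, 2 and 3 as a ratio to the geometric mean of the 3 libraries (TMM-scaled CPM, log axis), with a grey bar from lowest to highest. Replicate 1 is highest for all 8 receptors, Tlr3 has the widest bar with a ratio of highest to lowest of 1.89, and Unc93b1 the narrowest with 1.13.

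The annotated transcripts of each gene were compared by their percent share of the gene's abundance. Tlr2 and Tlr9 have 1 annotated transcript each, and Tlr13-201 held 99.6% ± 0.349 of Tlr13 (SD, n = 3). Because a single annotated transcript carries nearly all of the abundance of these 3 genes, bases upstream of their annotated starts are shown. Sequences are from RefSeq (GRCm38.p6, the mm10 build), cut to the part outside GENCODE exons. The RefSeq start was the GENCODE start in Tlr9 but lay 159 bases from it in Tlr2 and 46 bases from that of Tlr13-201 in Tlr13. The Tlr13 window ends before the first base of the minor transcript Tlr13-202, which lies upstream of the start of Tlr13-201. The windows are chr3:83841768-83841858 (minus strand) for Tlr2, chr9:106222348-106222597 (plus strand) for Tlr9 and chrX:106143025-106143203 (plus strand) for Tlr13, each 5′ to 3′. Capitals mark letters that match the ETS core AGGAAG on either strand, the AP-1 motif TGANTCA (Tlr9) or the kappaB consensus (Tlr2).
Tlr2: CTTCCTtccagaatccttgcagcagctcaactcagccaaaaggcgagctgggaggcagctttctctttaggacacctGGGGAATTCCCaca
Tlr9: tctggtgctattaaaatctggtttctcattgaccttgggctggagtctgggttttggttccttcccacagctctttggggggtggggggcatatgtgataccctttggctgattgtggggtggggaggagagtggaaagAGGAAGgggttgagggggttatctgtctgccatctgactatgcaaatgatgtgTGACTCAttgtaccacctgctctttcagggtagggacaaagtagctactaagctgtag
Tlr13: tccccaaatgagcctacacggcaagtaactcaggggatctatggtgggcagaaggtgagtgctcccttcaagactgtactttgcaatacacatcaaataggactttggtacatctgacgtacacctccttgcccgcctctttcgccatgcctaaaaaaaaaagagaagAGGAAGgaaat

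Promoter entries of 250 bases before a RefSeq start were matched for 8 of the 10 genes, and none was matched for Tlr7 and Unc93b1. The ETS core, the core recognised by the macrophage factor PU.1 and its relatives, occurred in 5 of their 10 promoters, 1 each of Tlr1, Tlr2, Tlr6, Tlr9 and Tlr13. Tlr1 and Tlr6 have a pair of promoters each, and the other promoter of each held none of the motifs. Over all 32851 promoters of that length, 29.5% held it. The AP-1 motif occurred in Tlr9, against 6.75% of all promoters, and the kappaB consensus in Tlr2 and Tlr3, against 3.90%. The interferon-stimulated response element occurred in Tlr6, against 2.98%. The Tlr6 matches, 1 of the ETS core and 2 of the interferon element, were in the promoter whose start lay 881 bases from the nearest GENCODE start. The promoter 1 base from the start of Tlr6-201 had 0 matches of each motif. Both strands were searched, motifs could overlap, and a match describes letters only.

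Among genes with several transcripts, Tlr1 is annotated with a pair of starts 802 bases apart. Tlr1-201, from the downstream start, had 56.96%, 61.81% and 57.96% of the gene, and Tlr1-202 and Tlr1-203, from the upstream start, together had 43.04%, 38.19% and 42.04%. The downstream start thus led in every library, with a mean share of 58.9% ± 2.56. The deposited tables hold a second quantification, made from the reads rather than from alignments. There the downstream start had 49.8%, 54.0% and 50.8% and the upstream start 50.2%, 46.0% and 49.2%, so the lead was lost in replicate 1. In Tlr6 the 446-base transcript Tlr6-202 was given 37.58%, 50.98% and 46.43% of the abundance. That share rested on 50.5, 93.31 and 106.06 expected counts, while Tlr6-201 had 1350.58, 1390.68 and 1892.14. Most reads of Tlr6 therefore lay on the longer transcript, although by abundance Tlr6-202 led in replicate 2. In the second quantification Tlr6-202 had 49.1%, 60.0% and 53.6%, a mean of 54.2% ± 5.47, so it led in replicates 2 and 3 and on average.

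The leading transcript of Tlr7 was Tlr7-201, with 61.8% ± 1.75, and in the second quantification it held 42.3% ± 5.39. Tlr8-202 led Tlr8 with 57.5% ± 5.53, and 68.1% ± 4.13 in the second. Tlr8-201 had 21.08%, 22.36% and 20.17% in the first quantification and 0% in all 3 libraries of the second. Tlr3 had the most annotated transcripts, 9, of which 3 held 10% or more on average in the first quantification. Tlr3-205 had 35.97%, 46.57% and 26.03%, and Tlr3-201 had 37.34%, 22.64% and 37.07%. The leader of Tlr3 thus differed between libraries, whereas in the second quantification Tlr3-205 held 55.7% ± 2.81 and led in each. Unc93b1-203 held 87.1% ± 1.87 of the chaperone gene, and 83.7% ± 1.76 in the second quantification. Transcript shares of Tlr5 rested on at most 10 expected counts and are not described.

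**Figure D3:**
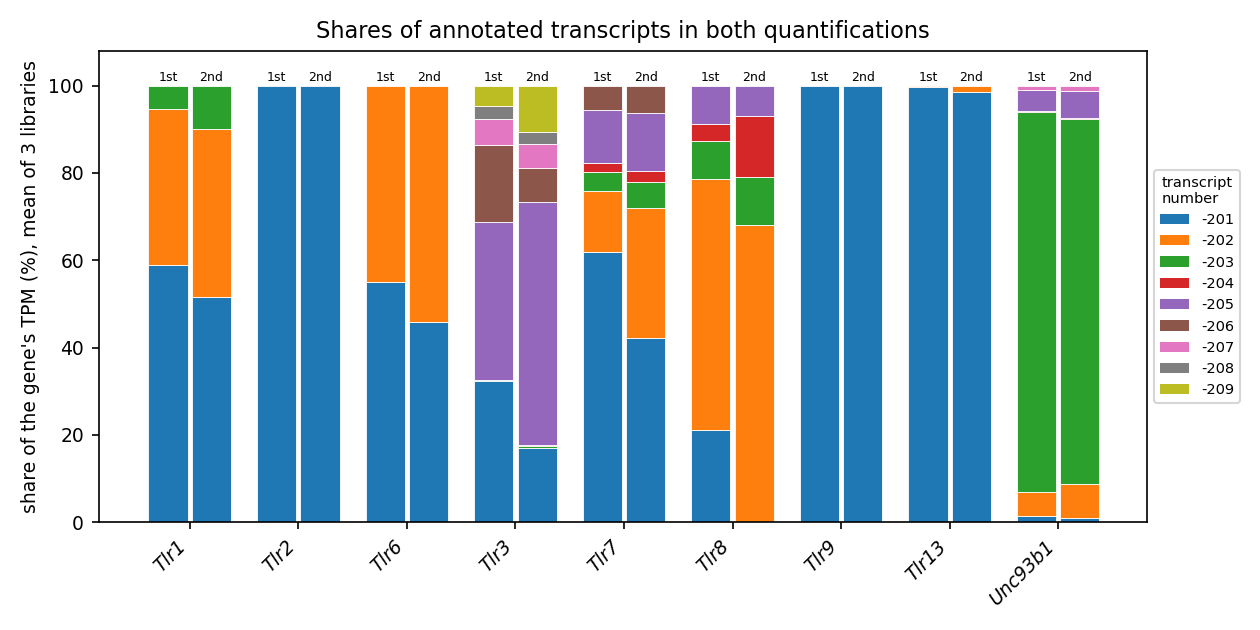
Share of each gene's TPM (%) by annotated transcript, as the mean of 3 libraries, for the first quantification (left bar) and the second (right bar); colours follow the transcript number within each gene. Tlr2 and Tlr9 have 1 transcript, Tlr8-201 (blue) is at 21.2% in the first bar and 0% in the second, and Tlr3-205 (purple) is at 36.2% in the first and 55.7% in the second.

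Gene levels in the second quantification were lower for all members. Tlr7, for example, had 94.53, 64.48 and 60.88 TPM in the first and 48.2, 34.6 and 25.7 TPM in the second. Over the 9 members at 1 TPM or more, first divided by second was 1.59 to 2.42. None was at least 2-fold higher in every library, against 6.66% of all genes and 5.65% of protein-coding genes at a mean of 1 TPM or more in either. At 1.5-fold all 9 were, against 88% of those protein-coding genes. Without replicate 2 the count at 2-fold was 5 of 9, against 46.5%. The whole table moved likewise, since the median ratio of protein-coding genes was 1.99, 1.82 and 2.28, and their share of the TPM sum in the second was 16.4%, 15.2% and 12.1%. After both were rescaled to protein-coding genes, the members' ratios were 0.856 to 1.07, lowest in Tlr8 and Tlr6, and 0 of 9 were 2-fold apart, against 0.277% of protein-coding genes higher and 0.48% lower in the first. By mean TPM, the order in the second quantification differed only in the positions of Tlr8 and Tlr1, which changed places. Within libraries more differed. In the second, Tlr8 had 35.5 TPM against 34.6 for Tlr7 in replicate 2, and Tlr1 had 26.5 against 25.7 in replicate 3. Tlr7 with Tlr8, Tlr8 with Tlr1 and Tlr1 with Tlr13 overlapped there and held their order in 2 of 3 libraries. The ranges of Tlr9 and Tlr2 did not overlap there.

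The rest of the pathway was read from 7 lists with 36 genes, of which 33 were at 1 TPM or more in every library. Genes for receptor folding and transport were at that level in 7 of 7, from the endolysosomal transporter gene Slc15a4 at 20.1 ± 2.54 TPM to its relative Slc15a3 at 195 ± 33.0 TPM. Proteases that cut endosomal receptors were at that level in 5 of 6, and had the highest median of the lists, 394 ± 32.3 TPM. Ctsb, the gene of cathepsin B, led with 2078 ± 450.1 TPM, and Ctsk, the gene of cathepsin K, was at 0.687 ± 0.229 TPM.

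Genes that degrade or move nucleic acid ligands were at 1 TPM or more in 6 of 6, from Sidt2, a lysosomal RNA transporter, at 15.1 ± 1.35 TPM to Pld3, a lysosomal exonuclease, at 162 ± 10.5 TPM. The co-receptors of the surface class were at that level in 3 of 3, led by Cd14 at 59.4 ± 6.74 TPM, with the beta-glucan receptor Clec7a lowest at 30.4 ± 9.53 TPM. The median of this list was 39.2 ± 10.1 TPM.

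Adaptors of the receptors were at that level in 5 of 6 and had a median of 10.3 ± 0.915 TPM. Pik3ap1, which links receptors to PI3 kinase, was at 266 ± 41.0 TPM, and Sarm1, a TIR-domain protein best known from neurons, was at 0.0167 ± 0.0115 TPM. The IRF factors downstream were at that level in 4 of 4, from Irf3 at 10.6 ± 1.07 TPM to Irf7 at 729 ± 182 TPM. Genes that restrain the receptors were at that level in 3 of 4 and had the lowest median, 5.72 ± 0.685 TPM, with Tollip highest at 15.6 ± 1.62 TPM and Sigirr lowest at 0.4 ± 0.0985 TPM. For comparison, the surface median was 21.2 ± 2.54 TPM and the endosomal median was 53.8 ± 9.03 TPM. The median of the IRF factors, 57.2 ± 6.27 TPM, differed from the endosomal median by less than the spread between libraries.

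**Figure D4:**
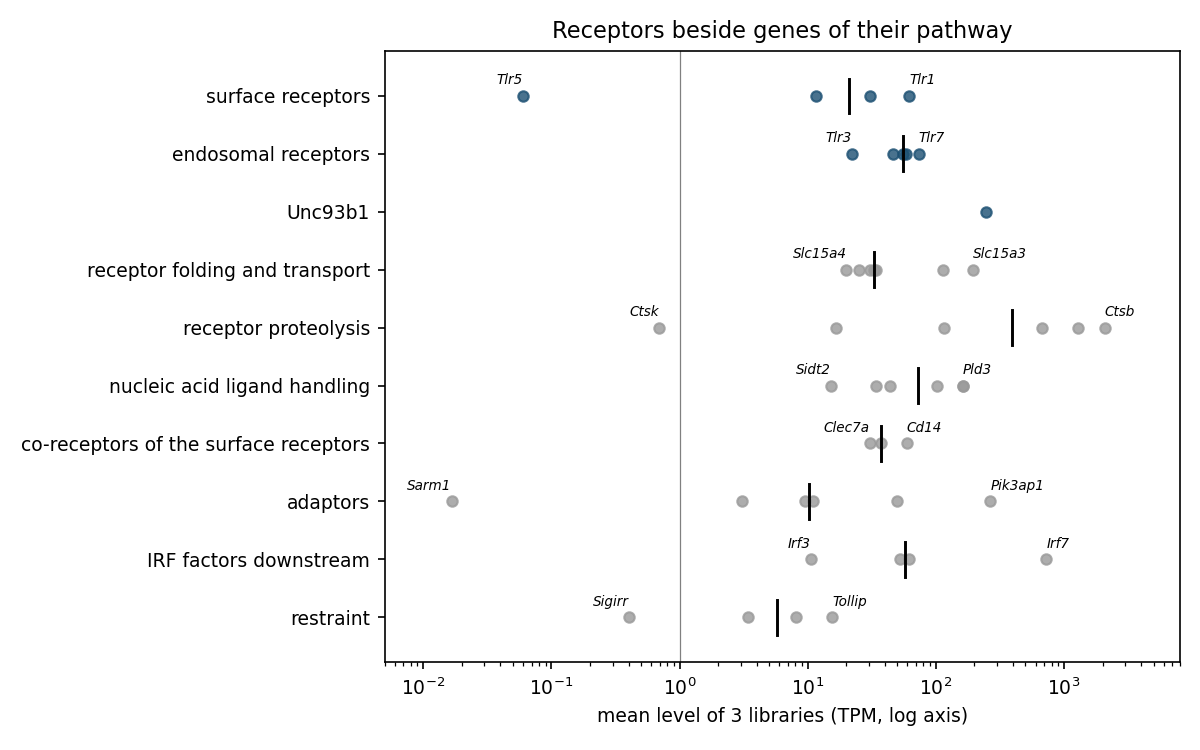
Mean level of 3 libraries (TPM, log axis) of each surface receptor, endosomal receptor and Unc93b1 (blue) and of the genes of 7 pathway lists (grey); black bars are medians of the gene means, and the highest and lowest gene of each row are named. Unc93b1 at 248 TPM lies above all receptors, and the protease list reaches the highest level with Ctsb at 2078 TPM.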

How the data were processed

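Total RNA-seq of 3 libraries of 1 group was analysed. The authors quantified each library on mm10 with GENCODE M21, from transcriptome alignments and again from the reads, per the text deposited with the files. Programs, versions and strandedness were not given in the sources used here, nor was the read length. Gene-level files hold expected counts and TPM deposited by the authors, with bounds of a credibility interval on the signal of TPM, per the file headers. Transcript tables hold TPM and the percent share of a gene per transcript, per the file headers. The second quantification was summed per gene here, and its percent shares were computed from its deposited TPM.

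Surface and endosomal levels were compared as medians of log2(TPM + 1), with a pseudocount of 1. Shares, ranges and ratios are means ± SD over 3 libraries. Rounded expected counts were tested in edgeR 4.0.16 (R 4.3.3) with TMM factors, filterByExpr and dispersion 0, and Benjamini-Hochberg adjustment over all genes. Each library had its own coefficient, which leaves no residual degrees of freedom for a quasi-likelihood test. Other steps used Python 3.11.15, pandas 2.3.3 and Biopython 1.88. Coordinates are 1-based on mm10. Shared sequence was counted in windows of 50 bases over GENCODE M21 transcripts.

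The members and the gene lists were chosen with earlier results of these data known. All members were named, with Tlr4, Tlr11, Tlr12 and the highest and lowest gene of each pathway list; the markers, Malat1, Neat1 and Irf7 are named where a result touches them, and transcripts where they lead. Alternatives were other list summaries, pseudocounts, minima, scalings, filters and quantifications, and leaving out each library.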

Additional observations from a re-analysis of the deposited data

How the results depend on the processing

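Over 12 results and 73 alternatives, 58 values moved little, 15 moved further and 0 reversed. Only the surface minus endosomal difference could reverse, because shares and counts cannot change sign. For means, moving little meant by less than the SD between libraries, which leaving out a library can never exceed. Part of the tally was thus fixed in advance. The surface minus endosomal difference (-1.45) was -1.91 with list means, -1.33 in the second quantification, -0.79 with only receptors at 1 TPM or more, and -0.81 with Tlr4, Tlr11 and Tlr12 added. Leaving out each library gave -1.50 to -1.39. The endosomal share (71.0%) was 74.9% in expected counts, 66.3% with Tlr4, Tlr11 and Tlr12 added, and 70.5% to 71.7% leaving out each library. The share in the second quantification of the transcript that led on average in the first was 51.5% for Tlr1, 45.8% for Tlr6, 55.7% for Tlr3, 42.3% for Tlr7, 68.1% for Tlr8, 98.6% for Tlr13 and 83.7% for Unc93b1, and in Tlr6 the lead passed to Tlr6-202 with 54.2%. The count of members at least 2-fold apart between quantifications, 0, was 9 at 1.5-fold, and 0 to 5 leaving out each library, with 5 without replicate 2. The causes of these moves were not tested. No paired analysis was possible because the series holds 1 group.

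Depth limits Tlr5, with at most 10 expected counts in a library, and the division of reads between Tlr1 and Tlr6 limits both. The TPM of Tlr6 is also limited by the few counts of its short transcript Tlr6-202. Tests against counting noise do not measure variation between cultures.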
